A study of Mus musculus with 4 samples.

Results

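The WNT ligands examined here were 10 genes of the mammary epithelium and its tumors, namely Wnt4, Wnt5a, Wnt5b, Wnt6, Wnt7a, Wnt7b, Wnt9a, Wnt10a, Wnt10b and Wnt11. They were picked by symbol from the 38713 genes kept, with no threshold on their values, and all 10 had a row. RNA had been sequenced from 4 established mouse mammary tumor cell lines on a C57BL/6 background, with 1 library for each line. The JNK_WT lines (libraries 1 and 2) came from tumors in which Cre recombinase under the Wap promoter, which is active in milk-producing epithelium, had deleted floxed Trp53. The JNK_KO lines (libraries 1 and 3) came from tumors in which the same recombinase had deleted floxed Trp53, Mapk8 and Mapk9, so all 4 lines carried the Trp53 deletion. Mapk8 and Mapk9 encode the stress-activated kinases JNK1 and JNK2. Each tumor was dispersed with collagenase, grown on collagen I for 2 passages and then on plastic, without any drug treatment, and each line therefore stands for a single cultured tumor. The ages of the animals were not given in the labels.

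WNT proteins are secreted, lipid-modified signals. The acyltransferase PORCN attaches the lipid, the carrier WLS brings the ligand to the cell surface, and Frizzled receptors with a co-receptor receive it. Some ligands act mostly through stabilized beta-catenin and TCF/LEF factors, others such as Wnt5a and Wnt11 mostly through routes that do not use beta-catenin. In the mammary gland, Wnt4 acts downstream of progesterone in side branching, Wnt10b belongs to the early mammary program of the embryo, and ectopic WNT ligands can cause mammary tumors in mice.

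Values are FPKM, sequenced fragments scaled by the length of the exons and by the fragments mapped in the library, and so can be compared between genes. How many reads stand behind a single value is unknown, since FPKM carry no counts. The labelled genotypes were checked first on the targeted genes. Mapk8 was 23.9 and 19.1 FPKM in the JNK_WT lines against 4.30 and 4.27 in the JNK_KO lines, and Mapk9 was 29.7 and 24.3 against 12.6 and 8.66. Trp53, deleted in all 4 lines, was listed at 1.55, 4.15, 5.72 and 4.28 FPKM in JNK_WT 1, JNK_WT 2, JNK_KO 1 and JNK_KO 3, and which of its exons these values cover was not tested. The epithelial label was met by Krt8, a luminal keratin, at 278 to 1045 FPKM. Ptprc, the leukocyte surface gene, was at or below 0.0134 FPKM, while Cd68, another leukocyte marker, was 2.65 to 20.0 FPKM.

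RefSeq promoter windows (GRCm38.p6) were matched by symbol for 7 of the 10 ligands, in 10 windows, while Wnt5a, Wnt7b and Wnt10a are named only. The 250 bases upstream of the start site are printed for 4 ligands whose values the results below turn on. These are Wnt6 and Wnt11, higher in both JNK_KO lines, and Wnt5b and Wnt7a, which differed most among lines of a single genotype. Each runs 5′ to 3′ on the strand of the gene, and capitals mark a motif match on either strand. The motifs searched were the AP1 element TGANTCA, bound by JUN proteins that JNK phosphorylates, the TCF/LEF core CTTTGA, and the cyclic AMP response element TGACGTCA.
Wnt6, chr1:74771642-74771891, plus strand: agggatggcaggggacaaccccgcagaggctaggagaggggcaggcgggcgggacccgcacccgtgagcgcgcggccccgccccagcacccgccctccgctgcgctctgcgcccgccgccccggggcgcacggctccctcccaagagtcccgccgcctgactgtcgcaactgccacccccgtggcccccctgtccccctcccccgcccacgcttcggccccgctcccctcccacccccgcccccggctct
Wnt11, chr7:98834862-98835111, plus strand: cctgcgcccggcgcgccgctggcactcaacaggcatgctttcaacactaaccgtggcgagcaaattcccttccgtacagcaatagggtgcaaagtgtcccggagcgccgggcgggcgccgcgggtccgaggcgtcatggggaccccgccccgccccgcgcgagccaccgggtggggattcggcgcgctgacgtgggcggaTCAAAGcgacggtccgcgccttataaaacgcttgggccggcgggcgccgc
Wnt5b, chr6:119544348-119544597, minus strand: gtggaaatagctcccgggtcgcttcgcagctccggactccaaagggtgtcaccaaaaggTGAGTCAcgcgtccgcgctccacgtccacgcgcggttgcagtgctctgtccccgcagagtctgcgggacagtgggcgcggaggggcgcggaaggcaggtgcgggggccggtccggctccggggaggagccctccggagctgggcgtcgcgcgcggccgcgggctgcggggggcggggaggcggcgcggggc
Wnt7a, chr6:91411354-91411603, minus strand: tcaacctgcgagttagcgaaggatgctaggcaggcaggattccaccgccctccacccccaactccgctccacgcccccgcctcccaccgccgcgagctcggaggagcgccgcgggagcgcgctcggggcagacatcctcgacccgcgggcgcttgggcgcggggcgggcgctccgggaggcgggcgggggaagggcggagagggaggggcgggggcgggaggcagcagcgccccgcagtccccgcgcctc

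The distal Wnt5b window held an AP1 match that began at position -191 relative to its start site, and the printed Wnt11 window held a TCF/LEF match that began at -50. A further Wnt5b window, chr6:119449387-119449636, held a TCF/LEF match at -71. Over the whole windows, which also take in 50 bases after the start site, those of Wnt4, Wnt6, Wnt7a, Wnt9a and Wnt10b held no match to any of the 3 motifs. No window of a ligand held more than 1 match, so no matches overlapped. Among all 32851 promoter windows of this length, 7.81% held the AP1 element, 16.0% the TCF/LEF core and 1.79% the cyclic AMP response element. The windows of the ligands were rich in G and C. That of Wnt4 reached 84.3% and that of Wnt9a 83.3%, against a median of 52.7% over all promoters, while the lowest of a ligand was 53.0% at an internal Wnt5b start site.

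Wnt7b was the most abundant WNT ligand mRNA in every line, at 164 and 134 FPKM in JNK_WT and 78.3 and 118 FPKM in JNK_KO. Its transcript alone made up 49.6% and 75.9% of the FPKM summed over all 19 mouse WNT ligands in the JNK_WT lines, and 64.9% and 76.7% in the JNK_KO lines. The next ligand differed by line. It was Wnt7a in JNK_WT 1 with 35.6% of the sum, Wnt10a in JNK_WT 2 with 16.3% and in JNK_KO 1 with 13.9%, and Wnt5b in JNK_KO 3 with 7.56%. Wnt7a, Wnt7b and Wnt10a together held 94.2%, 93.9%, 90.8% and 84.4% of the sum, in the order JNK_WT 1, JNK_WT 2, JNK_KO 1 and JNK_KO 3, in which values are given from here on. These 3 genes thus held most of the WNT ligand mRNA in all 4 lines, with different partners to Wnt7b. Wnt5b exceeded Wnt7a in JNK_WT 2, and both Wnt7a and Wnt10a in JNK_KO 3.

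**Figure D1:**
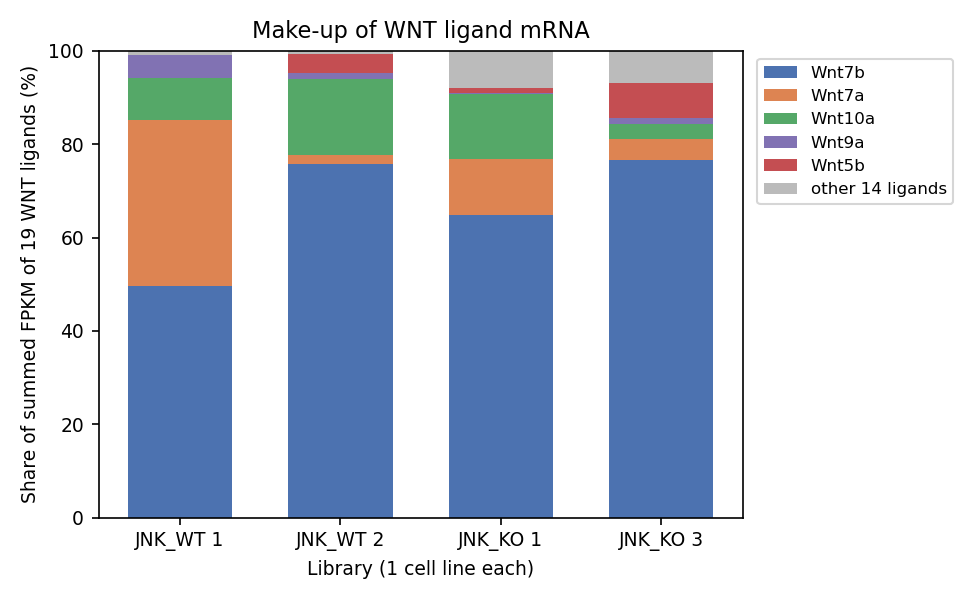
Share of the summed FPKM of 19 WNT ligand genes (vertical axis, percent) held by each of 5 ligands and by the rest, for each library (horizontal axis). Wnt7b fills 49.6% to 76.7% of every bar, and the Wnt7a segment is widest in JNK_WT 1 at 35.6%.

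The summed ligand FPKM was 331, 176, 121 and 154. Both JNK_KO lines were thus below both JNK_WT lines, and the excess of JNK_WT 1 over JNK_WT 2 was mostly Wnt7a, since without it the sums were 213, 173, 106 and 147. With Wnt7b left out instead, the sums were 167, 42.6, 42.3 and 35.8, so JNK_WT 2 and JNK_KO 1 were nearly equal. The number of the 10 ligands at 1 FPKM or more was 5 in each JNK_WT line, 7 in JNK_KO 1 and 9 in JNK_KO 3. Some lay just over that level, such as Wnt5b at 1.24 FPKM in JNK_KO 1 and Wnt11 at 1.28 FPKM in JNK_KO 3. The same count over all genes was not made. The 9 other mouse WNT ligands reached no more than 0.177 FPKM in any library, with Wnt2 and Wnt9b listed at 0 throughout.

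**Figure D2:**
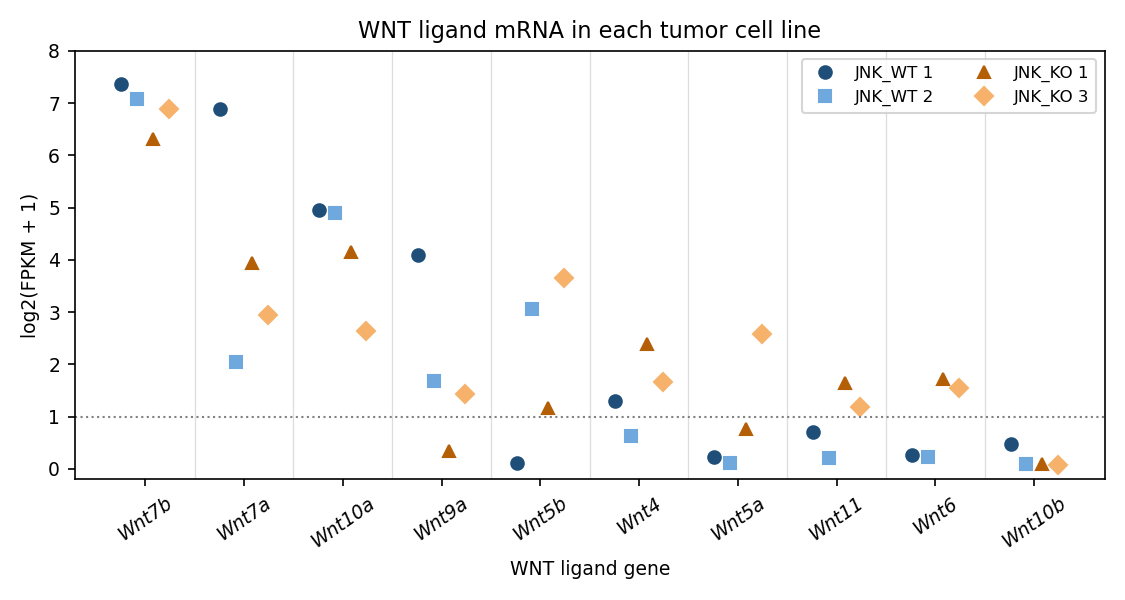
Level of each of the 10 ligands as log2(FPKM + 1) (vertical axis), with 1 point per library, and a dotted line at 1 FPKM. Wnt7b lies highest in every line, the 4 Wnt7a points spread from 3.10 to 118 FPKM, and Wnt10b does not exceed 0.387 FPKM.

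Between genotypes, Wnt4, Wnt5a, Wnt6 and Wnt11 were higher in both JNK_KO lines than in both JNK_WT lines, and Wnt7b, Wnt9a, Wnt10a and Wnt10b were lower. Wnt5b and Wnt7a overlapped between the groups. No difference passed the test. In limma fits of log2(FPKM + 1), with Benjamini-Hochberg adjustment over the 12998 genes that reached 1 FPKM in at least 2 libraries, 8 of the 10 ligands were tested and 0 were called at an adjusted p under 0.05 with an absolute log2 difference over 0.75. The same rule called 0 (0%) of all genes tested, and the smallest adjusted p was 0.0515. The count of genes tested with an unadjusted p under 0.05 was 992 (7.63%, with 4.75% higher and 2.89% lower in JNK_KO), among them 2 of the 8 ligands, Wnt6 (higher) and Wnt10a (lower).

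The groups did not overlap for 8 of the 10 ligands, 4 in each direction, where 32.2% of the 25135 genes with a value above 0 had such groups (18.4% higher and 13.8% lower in JNK_KO). Among genes tested the share was 35%, with 18.3% higher and 16.7% lower. Of the 8 ligands tested, Wnt6 and Wnt11 passed the filter only through the JNK_KO lines and so had to differ, and Wnt5a and Wnt10b were not tested because each reached 1 FPKM in at most 1 library. With 2 lines in each group, the smallest p that an exact permutation test could give is 0.333. In RNA from a whole culture, a lower value from fewer cells making a transcript cannot be told apart from less transcript in each cell.

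**Figure D3:**
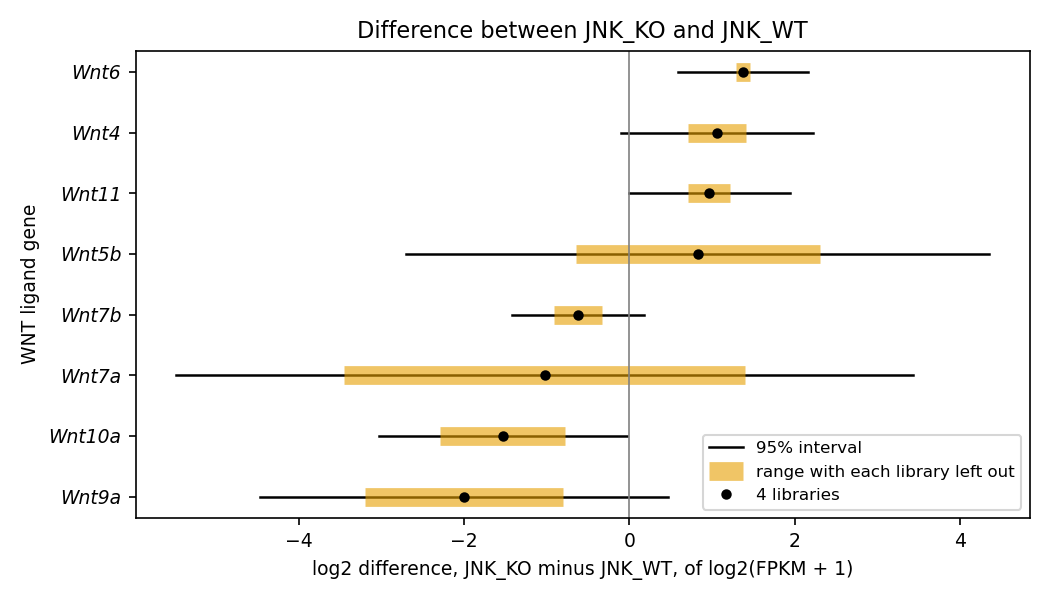
Difference in log2(FPKM + 1), JNK_KO minus JNK_WT (horizontal axis), for the 8 ligands tested (vertical axis), as the estimate from 4 libraries (points), its 95% interval (black lines) and the range when each library in turn was left out (orange bars). The intervals of Wnt6 and Wnt10a leave out 0, and the orange bars of Wnt5b and Wnt7a cross it. Wnt6 and Wnt11 passed the filter only through the JNK_KO lines and so had to differ.

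Wnt6, a ligand of the embryonic surface ectoderm, was 0.199 and 0.175 FPKM in JNK_WT and 2.28 and 1.90 FPKM in JNK_KO. The lines of each genotype lay close together and the groups far apart, the lower JNK_KO value being 9.57 times the higher JNK_WT value. Because Wnt6 passed the filter only through the JNK_KO lines, its groups had to be apart. In limma its log2 difference was 1.38 (SE 0.30, 95% interval 0.59 to 2.16, adjusted p = 0.362), and it ranged from 1.29 to 1.47 when a library was left out.

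Wnt10a, a ligand that signals through beta-catenin and is best known from skin appendages and teeth, was 30.05 and 28.7 FPKM in JNK_WT and 16.7 and 5.20 FPKM in JNK_KO. The JNK_WT lines differed by only 1.05-fold, the JNK_KO lines by 3.22-fold. Its log2 difference was -1.53 in limma (SE 0.56, 95% interval -3.03 to -0.03, adjusted p = 0.645). JNK_KO 3 set much of that size, and the difference was -0.77 without that line.

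Wnt6 and Wnt10a are neighbours on chromosome 1, at 74771892-74785322 and 74791516-74804179 (GENCODE M21, GRCm38), on the same strand with 6193 bases between them. The neighbours differed in opposite directions. The ratio of Wnt10a to Wnt6 was 151 and 164 in the JNK_WT lines and 7.35 and 2.73 in the JNK_KO lines. No window of 40 bases, the length of the reads, in the exons of either gene was shared with any other gene.

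Wnt4, the ligand of progesterone-driven branching, was 1.45, 0.550, 4.20 and 2.18 FPKM. The groups did not overlap, with the nearest lines of the 2 genotypes 1.50-fold apart and those within JNK_WT 2.63-fold apart. Its log2 difference was 1.06 in limma (SE 0.44, 95% interval -0.10 to 2.22, adjusted p = 0.698), and 0.71 without JNK_KO 1. Among its 40-base windows, 5.62% occur in other genes too, none of them a WNT ligand.

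Wnt11, which acts largely without beta-catenin in cell movements of the embryo, was 0.627, 0.150, 2.12 and 1.28 FPKM. Both JNK_KO lines passed 1 FPKM and neither JNK_WT line did. Its log2 difference was 0.96 in limma (SE 0.37, 95% interval -0.01 to 1.94, adjusted p = 0.657). An antisense gene, Gm8398, overlaps Wnt11 and was listed at 0 in every library.

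Wnt5a, the main ligand of the routes without beta-catenin, was 0.164, 0.0722, 0.704 and 4.997 FPKM. A single library, JNK_KO 3, stood apart, 7.10 times above the next line, and this gene was not tested for that reason. Its groups did not overlap. The antisense gene Gm2670, which overlaps 4.58% of the exon bases of Wnt5a, was at or under 0.0283 FPKM. Of the 40-base windows of Wnt5a, 3.74% occur in other genes too, none of them a WNT ligand.

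Wnt7b, a ligand of epithelial cells and the dominant transcript here, differed least over the 4 lines, by 2.10-fold between the highest and the lowest. Its lowest JNK_WT value, 134 FPKM, was only 1.14 times its highest JNK_KO value, 118 FPKM. The log2 difference was -0.62 in limma (SE 0.30, 95% interval -1.42 to 0.18, adjusted p = 0.781), and -0.33 without JNK_KO 1. The antisense gene AU022754, which shares 4.29% of the 40-base windows of Wnt7b, was at 0.362 to 0.493 FPKM.

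Wnt9a, known from the formation of joints, was 16.0, 2.22, 0.266 and 1.69 FPKM. JNK_WT 1 stood 7.18 times above the next line, and JNK_WT 2 and JNK_KO 3 were only 1.31-fold apart. Its log2 difference, -2.00, was the largest in size among the ligands tested and had a wide interval in limma (SE 0.93, 95% interval -4.47 to 0.47, adjusted p = 0.756). It was -0.80 without JNK_WT 1 and -3.20 without JNK_WT 2.

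Wnt10b, the ligand of the embryonic mammary line, was 0.387, 0.0685, 0.0611 and 0.0442 FPKM. All 4 values were under 1 FPKM and this gene was not tested. Its nearest lines across the genotypes were 1.12-fold apart, less than the 5.64-fold between the JNK_WT lines.

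Genes of a chromosome can differ together between cell lines, and their median was therefore compared with that of all genes tested, 0.01 in log2 difference. The 628 tested genes of chromosome 6, where Wnt5b and Wnt7a lie, had a median of -0.59, and for 56.2% of them both JNK_KO lines were below both JNK_WT lines. For chromosome 11, the location of Wnt9a, the median lay 0.22 below that of all genes (-0.20). Those of the other chromosomes that carry a ligand lay within -0.08 and 0.17 of it. After each library was centred on the median of each chromosome, the groups still did not overlap for Wnt4, Wnt6, Wnt11 and Wnt10a, and they overlapped for Wnt7b and Wnt9a, whose differences became -0.64 and -1.79. The centred differences of the ligands on chromosome 6 were 1.41 for Wnt5b, against 0.83 before, and -0.44 for Wnt7a, against -1.02, and their groups overlapped in both cases.

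Wnt5b varied far more within each genotype than between genotypes. Wnt7a did so within JNK_WT only, and its JNK_KO lines were 2.15-fold apart. Wnt5b, a relative of Wnt5a that likewise acts mostly without beta-catenin, was 0.0756, 7.36, 1.24 and 11.6 FPKM. JNK_WT 2 and JNK_KO 3 were the high lines, and the gap between the JNK_WT lines was 97.3-fold. Its log2 difference was 0.83 in limma (SE 1.32, 95% interval -2.70 to 4.35, adjusted p = 0.999), and it turned to -0.65 without JNK_WT 1 and to -0.42 without JNK_KO 3.

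Wnt7a, known for limb patterning and the female reproductive tract, was 118, 3.10, 14.4 and 6.68 FPKM. A single line, JNK_WT 1, was 8.18 times above the next, and both JNK_KO lines lay between the JNK_WT lines, which differed by 37.9-fold. The log2 difference was -1.02 in limma (SE 1.67, 95% interval -5.48 to 3.44, adjusted p = 0.999), and it turned to 1.40 without JNK_WT 1. Wnt7a and Wnt7b encode closely related ligands, yet their ratio was 0.717, 0.0232, 0.184 and 0.0567, so Wnt7a approached Wnt7b in JNK_WT 1 alone.

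The spread over lines was wider for the ligands tested than for the median gene tested. The range of log2(FPKM + 1) over the 4 libraries had a median of 2.04 among the 8 ligands tested and of 0.78 among all genes tested, and each of the 8 was above the latter. For Wnt7a, 98.6% of genes tested had a smaller range, and for Wnt7b, the lowest among the 8, 66.1%. Wnt6 and Wnt11 passed the filter only through the JNK_KO lines, so part of their range was built in. The genes compared were not matched for level.

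Markers of epithelial and other cell types moved with some of these values. The summed FPKM of 8 basal and myoepithelial markers was 26.1, 734, 38.3 and 376, high in the same lines as Wnt5b. Krt14, a basal keratin, was 7.34, 443, 26.7 and 313 FPKM, while Krt5, its partner keratin, was 0.0316, 61.9, 0.110 and 0.205 FPKM and so high in JNK_WT 2 alone. Krt17 and Trp63 were also highest in JNK_WT 2 and JNK_KO 3. Acta2, on the same list, was 7.36, 3.19, 1.70 and 29.0 FPKM, and so lower in JNK_WT 2 than in JNK_WT 1. No basal marker was listed at 0 in every library, and Myh11 and Oxtr, a muscle myosin and the oxytocin receptor, were under 1 FPKM in each.

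**Figure D4:**
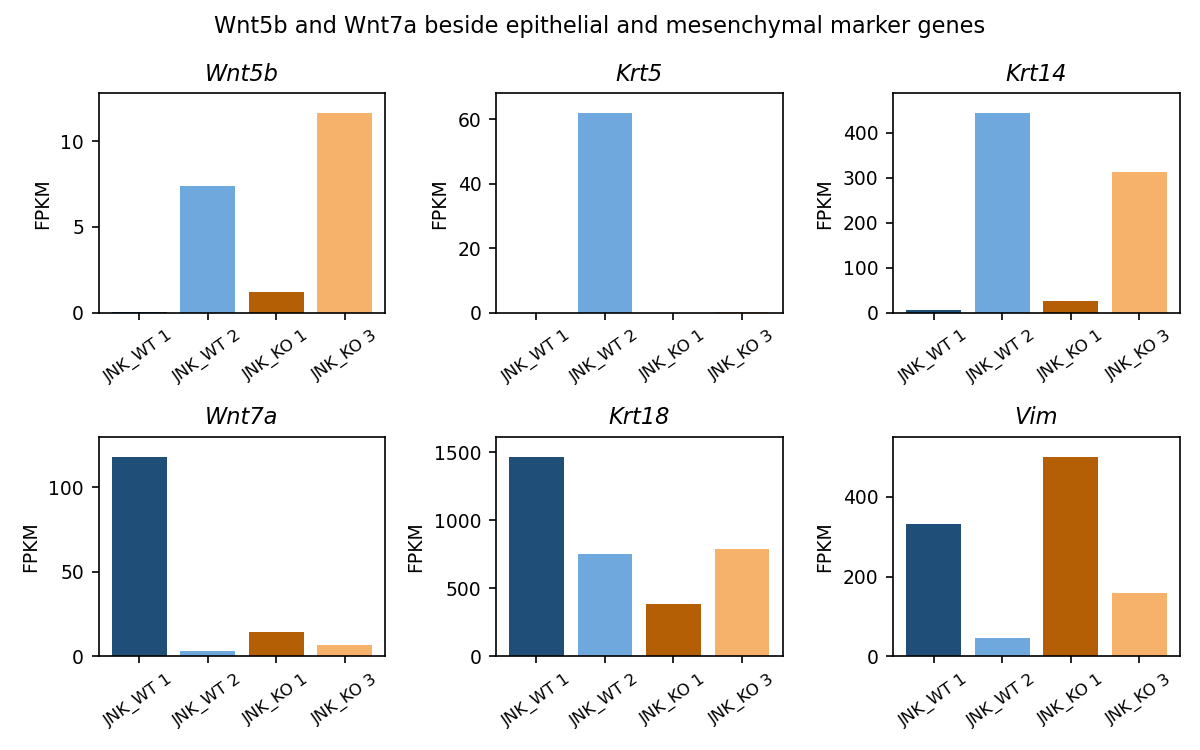
FPKM (vertical axis, linear from 0, scaled for each gene) of Wnt5b and Wnt7a and of 4 marker genes in each library (horizontal axis), 1 bar per library. Wnt5b and Krt14 are highest in JNK_WT 2 and JNK_KO 3, and Wnt7a is highest in JNK_WT 1 at 118 FPKM.

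The sum of 10 luminal markers was 4065, 3152, 1345 and 2820, lower in both JNK_KO lines, as were Wnt7b, Wnt9a, Wnt10a and Wnt10b. All 10 were tested and 8 had a lower value in JNK_KO, with a median log2 difference of -0.48, although 0 were called. The groups were apart for 3 of the 10, lower for Krt8 and Epcam and higher for Gata3, against 16.7% lower and 18.3% higher among all genes tested. Gata3, a luminal transcription factor named here after its values were seen, went the other way from the sum at 1.79, 1.18, 31.6 and 38.6 FPKM (log2 difference 3.87, limma adjusted p = 0.0903). Krt18, a luminal keratin, was 1466, 752, 385 and 789 FPKM. The luminal markers did not share a highest line. Krt8, Krt18, Krt19 and Cldn4 were highest in JNK_WT 1, as was Wnt7a. Epcam and Cldn7 were highest in JNK_WT 2, and Cdh1, Gata3, Elf5 and Cldn3 in JNK_KO 3. Of 12 mesenchymal markers, whose sum was 373, 85.9, 640 and 350, 7 were tested and 5 were higher in JNK_KO. The groups were apart in that direction, as for Wnt4, Wnt6 and Wnt11, for Dcn, Pdgfra, Pdgfrb and Zeb1 (18.3% among all genes tested). Of these markers, all but Zeb1 passed the filter only through the JNK_KO lines and so had to differ. Twist1, on the same list, was apart the other way at 28.4, 35.8, 23.9 and 7.73 FPKM (16.7% among all genes tested). Dcn, the matrix proteoglycan decorin, also named after its values were seen, was 0.430, 0.389, 79.7 and 162 FPKM (log2 difference 6.35, limma adjusted p = 0.0554). Vim, the mesenchymal filament vimentin, was 331, 47.2, 500 and 159 FPKM. The part of these markers in the ligand differences was not tested. Sums for 7 leukocyte markers were 3.63 to 22.0 FPKM, with 5 of the 7 under 1 FPKM in every library. Cd68, at 20.0, 3.15, 2.65 and 8.43 FPKM, and Csf1r, at 1.82, 0.448, 0.312 and 1.23 FPKM, were highest in JNK_WT 1. Each of 5 endothelial and 5 adipocyte markers was under 1 FPKM, with Plin1 and Lep at 0.

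The other genes of the pathway were taken in 7 lists. Of 68 genes in the table, 44 passed the filter, of which 24 had a higher and 20 a lower mean in JNK_KO, with a median log2 difference of 0.05. The groups did not overlap for 17 of the 44 (6 higher, 11 lower), or 38.6%, against the 35% of all genes tested, and 0 were called. The unadjusted limma p was under 0.05 for 4 of the 44, against 7.63% of all genes tested (4.75% higher and 2.89% lower in JNK_KO). These were Apcdd1 and Rspo1, higher in JNK_KO, and Lrp6 and Lgr6, lower. Apcdd1, Rspo1 and Axin2, all among the 6 apart and higher, passed the filter only through the JNK_KO lines and so had to differ.

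The genes that mature and release the ligands were expressed in all lines. Porcn, the acyltransferase, was 14.9, 22.8, 13.9 and 12.2 FPKM, lower in both JNK_KO lines, with a log2 difference of -0.47 (SE 0.32, limma adjusted p = 0.902), and -0.18 without JNK_WT 2. Wls, the carrier, was 61.8, 40.3, 28.9 and 49.8 FPKM with overlapping groups and a log2 difference of -0.39. Notum, the secreted enzyme that removes the lipid, was 7.83, 22.3, 15.7 and 9.43 FPKM, also overlapping.

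**Figure D5:**
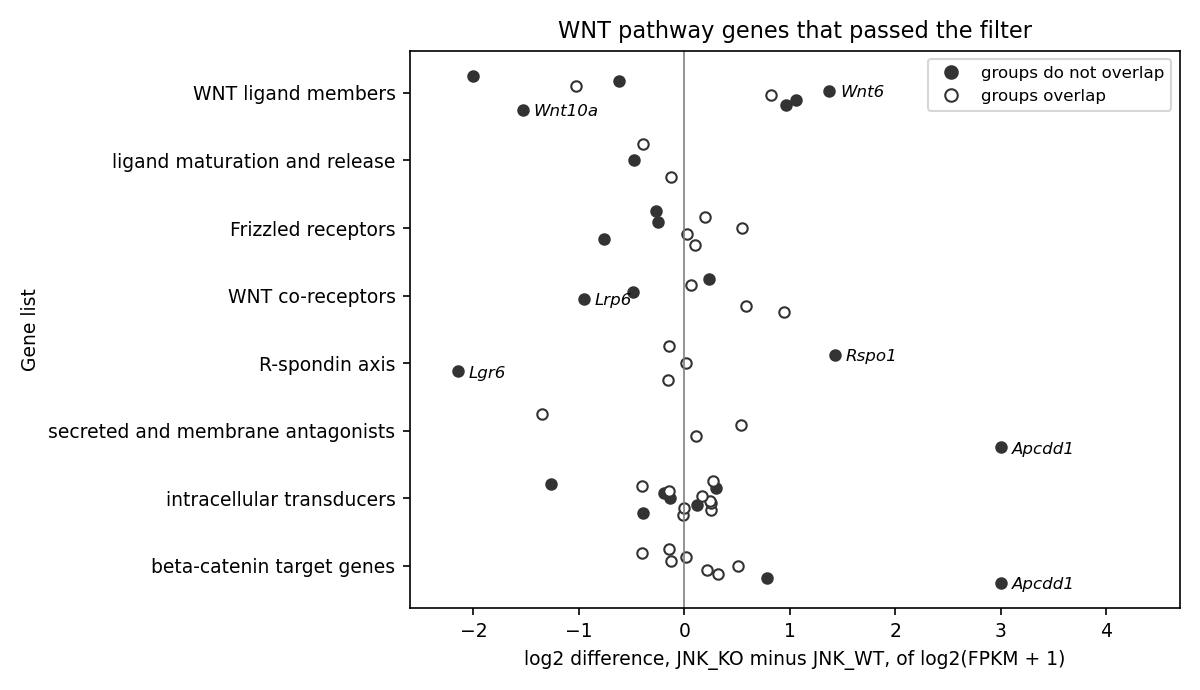
Log2 difference, JNK_KO minus JNK_WT, on the log2(FPKM + 1) scale (horizontal axis) for tested genes of the ligand list and of 7 pathway lists (vertical axis), filled where the groups do not overlap and named where the unadjusted p was under 0.05. The ligands spread from -2.00 to 1.38, and Apcdd1, which stands in 2 lists, lies farthest right at 3.01.

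Of 10 Frizzled receptors, 7 were tested, 4 higher and 3 lower, with a median log2 difference of 0.03. The groups did not overlap for 3 of the 7, each lower in JNK_KO, as were 16.7% of all genes tested. The largest difference was that of Fzd2, at 10.8, 18.6, 8.47 and 7.53 FPKM, which came to -0.76 in log2, and to -0.40 without JNK_WT 2. Fzd5 had 0.55 and Fzd8 -0.26.

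Of 8 co-receptors, 6 were tested, 4 higher and 2 lower, with a median of 0.15. Lrp6, a co-receptor of the beta-catenin route, was 37.6, 42.0, 18.7 and 21.7 FPKM, lower in both JNK_KO lines, with a log2 difference of -0.95 (SE 0.24, limma adjusted p = 0.451). Lrp6 lies on chromosome 6, and with each chromosome centred its difference was -0.36. Its paralog Lrp5 had overlapping groups and a difference of 0.58, as did Gpr124, a Wnt7a and Wnt7b co-receptor of blood vessels, with 0.94 (3.35, 0.294, 9.77 and 0.938 FPKM).

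In the R-spondin axis, which raises the number of Frizzled receptors at the cell surface, 5 of 9 genes were tested, 2 higher and 3 lower, with a median of -0.14. Rspo1, a secreted amplifier of WNT signals, was 0.0608, 0.00735, 1.91 and 1.65 FPKM. It passed the filter only through the JNK_KO lines, as Wnt6 did, and its log2 difference was 1.43 (SE 0.29, limma adjusted p = 0.341). Lgr6, an R-spondin receptor, was 16.8, 10.4, 0.899 and 4.45 FPKM, lower in both JNK_KO lines, with a log2 difference of -2.14 (SE 0.62, limma adjusted p = 0.498), and -1.38 without JNK_KO 1. Lgr4, another R-spondin receptor, was 9.67, 31.5, 8.11 and 29.9 FPKM and overlapped.

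Most antagonists were hardly detected. Of 16 listed genes 15 were in the table, 10 were under 1 FPKM in every library, and 4 were tested, 3 higher and 1 lower, with a median of 0.32. Apcdd1, a membrane inhibitor that is itself induced by WNT signals, was 0.327, 0.128, 11.9 and 6.49 FPKM. It was higher in both JNK_KO lines by 3.01 in log2 (SE 0.40, limma adjusted p = 0.191), the largest difference among the pathway genes tested, and passed the filter only through them. Sfrp1, which binds WNT ligands outside the cell, was 3.11, 28.3, 6.48 and 32.9 FPKM, high in the same lines as Wnt5b, and Sostdc1 was 0, 29.5, 0.0662 and 3.43 FPKM.

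Among 17 intracellular transducers, 15 were tested, 7 higher and 8 lower, with a median of -0.01. The largest difference was that of Tcf7l1, a TCF factor that mostly represses, at 15.5, 21.5, 4.36 and 11.02 FPKM and -1.26 in log2 (SE 0.49, limma adjusted p = 0.669). With each chromosome centred it came to -0.68 and the groups overlapped, and without JNK_KO 1 it was likewise -0.68. Tcf7 was 9.31, 42.4, 17.6 and 12.8 FPKM, and Lef1, a TCF relative and a target of the pathway, was at or under 0.0835 FPKM in all lines. Axin1, a scaffold of the complex that degrades beta-catenin, had a difference of -0.39.

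Among 14 target genes of beta-catenin, 9 were tested, 6 higher and 3 lower, with a median of 0.21, and the groups did not overlap for Axin2 and Apcdd1 (35% among all genes tested), both of which passed the filter only through the JNK_KO lines and so had to differ. Axin2, the most widely used readout of the route, was 0.228, 0.773, 2.18 and 1.04 FPKM, with a log2 difference of 0.79 (SE 0.40, limma adjusted p = 0.803), and 0.47 without JNK_KO 1. Nkd2 was 0.428, 305, 7.81 and 100 FPKM. It was highest in JNK_WT 2 and JNK_KO 3, the lines in which Wnt5b was highest.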

How the data were processed

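RNA from 4 cell lines was sequenced by the authors as single-end reads of 40 bases, trimmed with Trimmomatic, sampled with seqtk to similar read numbers, aligned to mm10 with Bowtie2 and TopHat2 2.0.14 and quantified with Cufflinks 2.2.1. The annotation and strand setting were not given in the sources used here, so antisense genes that overlap a ligand may share its reads. The deposited values are FPKM per gene and library, not pooled, and summed to 775960 to 921595 per library. Of 38741 rows, 27 with symbols turned into dates and 1 without a value were left out. Without counts the reads behind each value are unknown, no counting interval was given and no count model was fitted.

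Groups came from sample titles. The members and gene lists were chosen with earlier results of these data known. Genes that reached 1 FPKM in 2 or more libraries were tested on log2(FPKM + 1), a scale that understates changes of low values, with limma 3.58.1 (lmFit and eBayes with an intensity trend, two-sided) in R 4.3.3, which was tested on simulated data. Thresholds were those of the study. Nothing in the labels says more than that each library is a separate line, and p-values measure the spread between lines. The genes named were all 10 ligands, Porcn, Wls, Axin2, Lef1 and Tcf7, the 3 with the largest difference in each list and any with an unadjusted p under 0.05, besides the targeted and marker genes. Of the marker genes, Krt5, Krt14, Krt8, Krt18 and Vim were set in advance to be named. The other marker genes were named after their values were seen. Positions came from GENCODE M21 and promoters from RefSeq. Alternatives were other pseudocounts, filters, scalings, a p threshold of 0.1, a fit without the trend and fits without each library.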

Additional observations from a re-analysis of the deposited data

How the results depend on the processing

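The count of all genes called, 0, became 10 at a pseudocount of 0.1, 14 at 0.5, 14 without the intensity trend and 25 at an adjusted p under 0.1. It stayed at 0 (0 to 0) in fits that left out a library, which assume that a lone line varies like the other group. No ligand was called under any setting, the smallest adjusted p being 0.276 for Wnt6. The count of tested ligands whose groups did not overlap, 6, was 3 of 5 tested with a mean FPKM of at least 5, 4 with each chromosome centred, and 8 of 10 with no filter, where 33.9%, 33.6% and 32.2% of all genes had such groups. It was 6 to 8 with a library left out, when 61.0% to 72.1% of all genes did, so these counts are not comparable with the others. At a pseudocount of 0.1 the differences were 2.93 for Wnt6, 2.04 for Wnt11, 1.79 for Wnt5b and 1.64 for Wnt4, against 1.38, 0.96, 0.83 and 1.06. With a library left out, directions turned for Wnt5b (-0.65 to 2.31, with -0.42 without JNK_KO 3) and Wnt7a (-3.45 to 1.40). No paired analysis was possible, because each line stands for its own tumor and the labels pair no JNK_WT line with a JNK_KO line. FPKM without counts limits what can be said of ligands under 1 FPKM.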
